A study of Irpex lacteus with 14 samples.

Results

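Transcript levels of the white-rot fungus Irpex lacteus, strain CCBAS Fr. 238 617/93, were compared between mycelium grown on aspen, a hardwood, and on pine, a softwood. The comparison covered 967 of the 977 different genes in the table: those with a normalized read count of about 10 or more on at least 2 of the 5 substrates of the series. A gene's difference is its value on aspen minus its value on pine on the log2 scale, so positive values mean more reads on aspen and negative values more reads on pine.

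White-rot fungi break down all the polymers of wood, using secreted glycoside hydrolases, oxidative enzymes that cut polysaccharides, and peroxidases that attack lignin. Hardwood and softwood differ in what these enzymes meet: hardwood hemicellulose is mainly xylan and its lignin mixes syringyl with guaiacyl units, whereas softwood hemicellulose is mainly galactoglucomannan and its lignin consists mostly of guaiacyl units. Pine wood also carries resin, a mixture of terpenoids and related compounds.

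The aspen group held 3 libraries and the pine group 2, all from day 3 of shaken 100 ml cultures at 30 °C. Both media held 15 g per litre of wood in the same salts with yeast extract. The pine wood was sieved to fragments under 2 mm, and maltose was added to pine at 2.5 g per litre. The aspen was milled to 1 mm, and the maltose level of its medium is garbled in the label and is not given here. Wood species, milling and any gap in maltose therefore cannot be told apart. A further 3 groups of 3 libraries each served as reference points: cellulose (Avicel) and wheat straw (fragments under 2 mm), each at 15 g per litre with 2.5 g per litre of maltose, and maltose alone at 20 g per litre.

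For each substrate the table gives a single normalized log2 read count per gene, which stands for all its libraries. No value per library was used here, so the spread between cultures is unknown, no test or interval accompanies any difference, and the depth of the libraries is unknown. A gene is called higher on one wood when its deposited values differ by at least 1 on the log2 scale, that is 2-fold, and counts at 4-fold are given beside these. The values are read counts per gene, not corrected for gene length. The files identify genes by number only and do not pair these numbers with names or functions, so no enzyme family can be followed, the mycelium label cannot be checked against marker genes, and only the 2 leading genes in each direction are given by number.

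Most genes had similar values on both woods, and among those that differed, higher values on pine prevailed. On the deposited scale 705 genes (72.9%) lay within 2-fold. Another 194 genes were at least 2-fold higher on pine (20.1% of the genes compared) and 68 were at least 2-fold higher on aspen (7.03%). At 4-fold the numbers were 35 genes (3.62%) on pine and 15 genes (1.55%) on aspen, and past 8-fold 4 genes were higher on pine and 2 on aspen. Pine thus held 74.0% of the genes past 2-fold. The middle 50% of differences ran from -0.84 to 0.32, and the span from the 5th to the 95th percentile was -1.75 to 1.17.

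**Figure D1:**
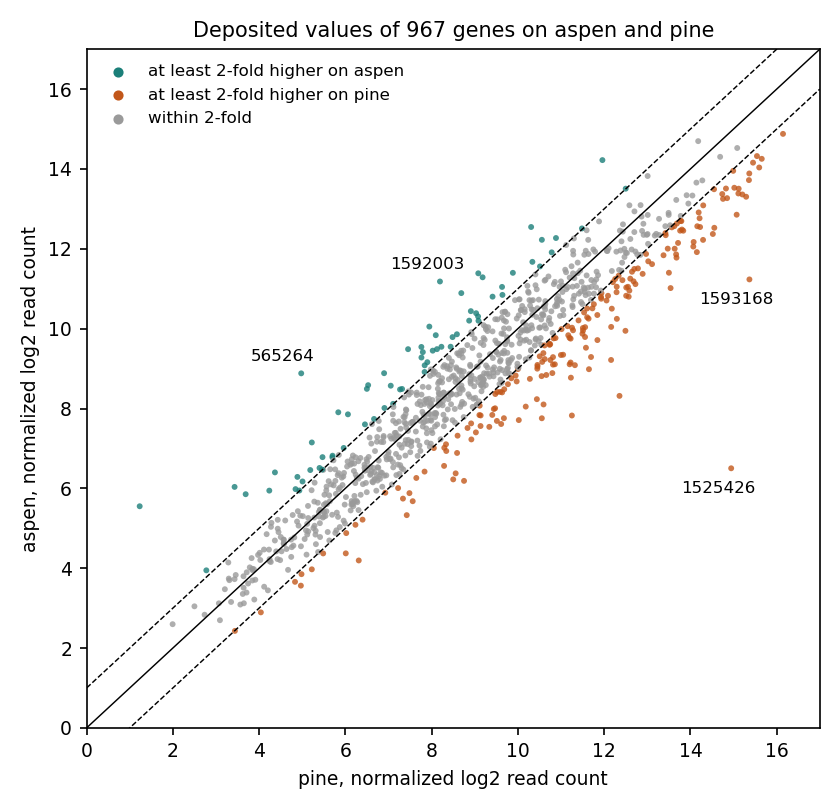
Deposited normalized log2 read counts on pine (horizontal axis) and aspen (vertical axis), with 1 point per gene, the line of equality and dashed lines at 2-fold. The 194 orange points are genes higher on pine and the 68 green points genes higher on aspen, and the orange points lie mostly among the genes with many reads.

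The balance between the woods depends on the scaling. The median difference over all 967 genes was -0.23, so the typical gene itself read lower on aspen. Relative to that median, 105 genes were higher on aspen and 137 on pine. When each column was centred on its own median the split was 89 to 157, and when all columns were given the same distribution by quantile normalization it turned to 119 higher on aspen and 104 on pine. The 104 genes on pine under quantile normalization were all among the 194, and the 68 genes on aspen were all among the 119. The summed normalized read counts of the 967 genes were 1.79 times as high on pine as on aspen.

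**Figure D2:**
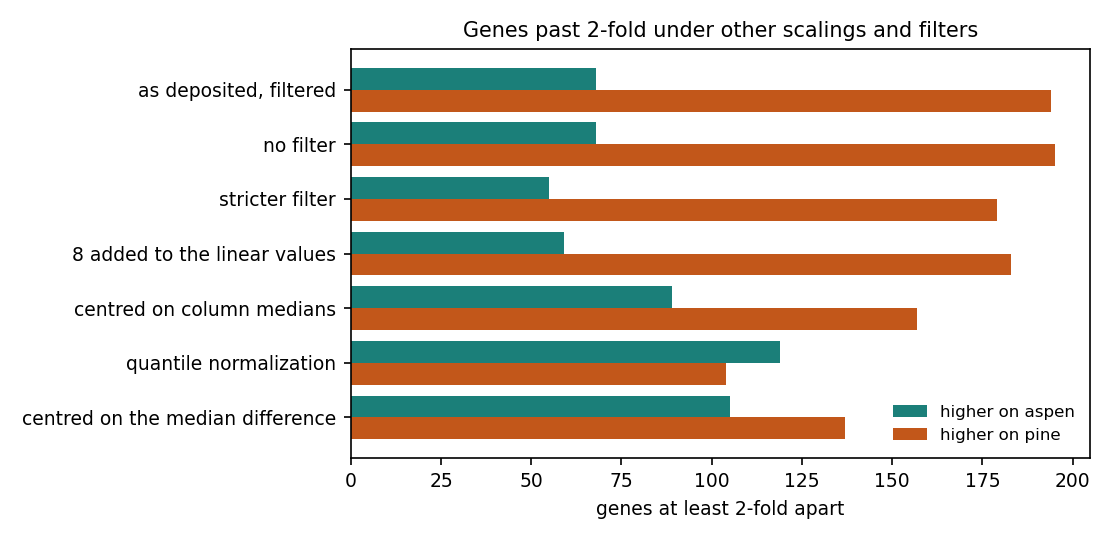
Number of genes at least 2-fold higher on aspen (green) and on pine (orange) under the deposited scaling and each alternative. The pine bar is longer in every row except quantile normalization, where it stands at 104 against 119.

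The excess on pine was concentrated in genes with many reads. Genes were sorted by their mean log2 value over the 5 substrates and cut into 4 bins of equal size. The highest bin of 242 genes held 96 of the 194 genes higher on pine, which was 39.7% of the bin. The lowest bin held 19, or 7.85%. Genes higher on aspen were spread evenly, with 20, 18, 16 and 14 genes from the lowest to the highest bin. The median difference was -0.05 in the lowest bin, -0.08 and -0.26 in the next, and -0.70 in the highest.

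Sorting by the mean of maltose, cellulose and wheat straw alone, which leaves both woods out of the ranking, gave a like gradient, with 23, 32, 45 and 94 genes higher on pine per bin. In the highest bin of that ranking the median gene stood at 11.40 on maltose, 11.60 on cellulose, 11.93 on straw, 12.27 on pine and 11.47 on aspen. Relative to its mean on the other 3 substrates, the typical gene of this bin was 0.60 above on pine and 0.16 below on aspen. In the lowest bin it was 0.29 above on pine and 0.19 above on aspen. The range of values was also narrower on aspen, with an SD across genes of 2.51 against 2.79 on pine. Quantile normalization removes such a difference by construction, and after it the highest bin held 22 genes higher on pine and 35 higher on aspen.

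**Figure D3:**
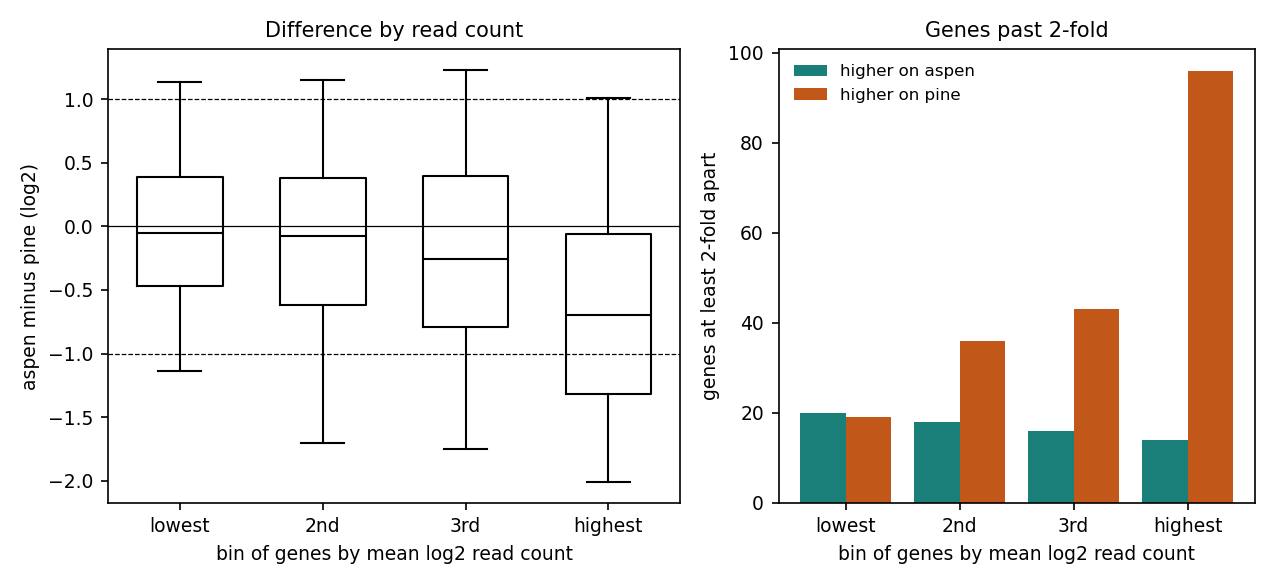
Left, aspen minus pine differences (log2) in 4 bins of genes by mean read count, with the box at the quartiles, the line at the median and whiskers at the 5th and 95th percentiles. Right, the genes past 2-fold in each bin, where genes higher on pine climb from 19 to 96 and genes higher on aspen go from 20 to 14.

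The largest difference of the comparison belonged to gene 1525426. Its log2 value was 14.95 on pine and 13.81 on wheat straw, against 9.32 on maltose, 8.71 on cellulose and 6.50 on aspen. Its aspen value was therefore 348-fold below its pine value, and aspen gave the lowest of its 5 values. It ranked 17 among the 967 genes by read count on pine and 750 on aspen. Of their summed normalized read counts it held 1.24% on pine and 0.0064% on aspen.

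Gene 1593168 came next, at 15.37 on pine, 13.70 on straw, 12.14 on cellulose, 11.44 on maltose and 11.23 on aspen. Aspen was 17.6-fold below pine for this gene, which ranked 6 by read count on pine and 150 on aspen, and lay close together on aspen and maltose. The gene in the third place stood at 12.36 on pine and 8.32 on aspen (16.5-fold), with straw at 12.15 and both maltose (9.87) and cellulose (9.56) between the woods.

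The 12 genes with the largest differences toward pine were mostly high on straw as well as on pine. They were 5.49-fold to 348-fold higher on pine than on aspen. Their median values were 9.20 on maltose, 9.42 on cellulose, 11.49 on straw, 11.90 on pine and 8.54 on aspen. Pine gave the highest of the 5 values in 11 of the 12, against 33.7% of all genes. Straw did so in the other, which stood at 13.47 on straw and 11.23 on pine. Straw exceeded cellulose by at least 2-fold in 10 of the 12, and exceeded maltose by that much in 11, against 20.4% and 24.5% of all genes. Pine lay within 2-fold of straw in 5 of the 12, against 69.3% of all genes, and aspen within 2-fold of cellulose in 9, near the 76.5% of all genes. Aspen was the lowest value in 5, against 15.6% of all genes. The choice of genes by pine over aspen fixes part of every count here that uses a pine or aspen value. The 4th gene of this list, for example, stood at 7.02 on maltose, 7.53 on cellulose and 7.82 on aspen, against 9.70 on straw and 11.25 on pine.

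In the other direction, gene 565264 led the ranking made after 8 was added to the linear values. Its log2 value was 8.88 on aspen, against 7.68 on cellulose, 5.87 on maltose, 4.98 on pine and 4.75 on straw. It was 15.0-fold higher on aspen than on pine, and its pine and straw values were nearly alike. Gene 1592003 followed at 11.18 on aspen and 8.19 on pine, a 7.94-fold difference. Its values on maltose (13.16) and cellulose (12.77) were higher still, and straw (8.42) was again close to pine, so aspen was intermediate for this gene rather than the peak.

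The 12 leading genes toward aspen in that ranking were 4.09-fold to 20.0-fold higher there than on pine. On the deposited values some genes outside the 12 differed by more than the smallest of these folds. The largest of these folds belonged to a gene near the floor of the table, at 5.55 on aspen and 1.23 on pine, and came to a difference of 2.41 with 8 added to the linear values. The medians of the 12 genes were 9.32 on maltose, 10.04 on cellulose, 8.43 on straw, 8.07 on pine and 10.47 on aspen. Aspen was the highest of the 5 values in 6 of them, against 12.4% of all genes. The choice of these genes by aspen over pine fixes part of that count. Pine lay within 2-fold of straw in 10 of the 12 and aspen within 2-fold of cellulose in 3, against 69.3% and 76.5% of all genes. These counts use the pine or aspen values by which the genes were chosen, so the choice fixes part of them too. Straw was at least 2-fold below cellulose in 8, against 18.6% of all genes. These 12 include the gene with the highest value of the table on maltose and cellulose, which was at 17.16 and 17.31 there, 14.22 on aspen, 11.96 on pine and 11.55 on straw.

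**Figure D4:**
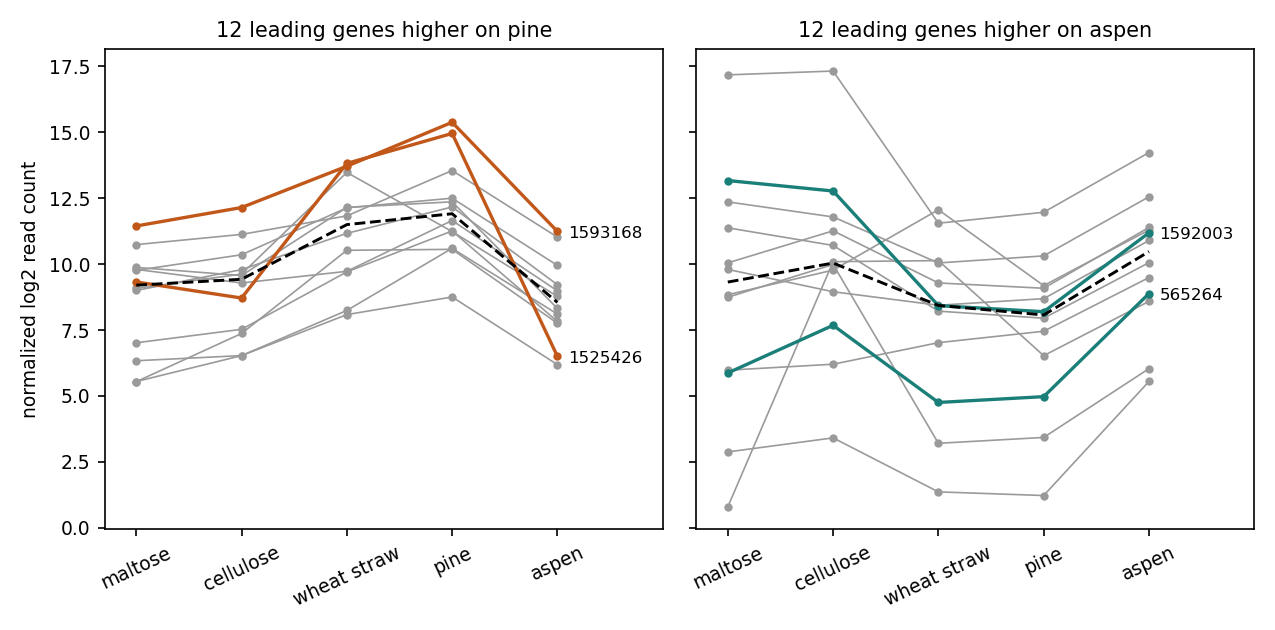
Normalized log2 read counts of the 12 leading genes higher on pine (left) and on aspen (right) on the 5 substrates, with each line joining the values of 1 gene and the dashed black line joining the medians. On the left the medians are 11.49 on straw and 11.90 on pine against 8.54 on aspen, and 1 gene is no higher on straw than on maltose. On the right the medians are 8.43 on straw and 8.07 on pine against 10.47 on aspen.

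The wheat straw, cellulose and maltose columns do not enter the aspen and pine comparison, and in them the genes higher on pine and those higher on aspen differed in opposite directions. Among the 194 genes higher on pine, 79 (40.7%) were at least 2-fold higher on straw than on cellulose and 16 (8.25%) at least 2-fold lower. Over all 967 genes these shares were 20.4% and 18.6%. Among the 68 genes higher on aspen, 8 (11.8%) were higher on straw than on cellulose and 34 (50.0%) were lower. The median straw minus cellulose difference was 0.62 for the pine genes (11.01 against 10.09 as column medians), -1.01 for the aspen genes (7.58 against 8.18) and 0.04 over all genes. Among the 705 genes within 2-fold of each other on the woods, 110 were higher on straw and 130 lower, with a median of -0.05. Read count moves with these shares: over all genes, straw exceeded cellulose by 2-fold for 11.2% of the lowest bin by read count and 26.0% of the highest. Within the bins the share among genes higher on pine was 36.8%, 41.7%, 51.2% and 36.5% from the lowest to the highest, above that of all genes in each bin (11.2%, 19.4%, 24.9% and 26.0%). Genes with straw below cellulose made up 65.0%, 16.7%, 43.8% and 78.6% of the genes higher on aspen, against 27.7%, 17.8%, 14.9% and 14.0% of all genes, so the second bin showed no excess.

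Against maltose the result was alike. Both comparisons use the same straw values, and cellulose and maltose were close for most genes, so the second is not independent of the first. Straw was at least 2-fold above maltose for 91 of the 194 pine genes (46.9%) and 13 of the 68 aspen genes (19.1%), against 24.5% over all genes. It was at least 2-fold below maltose for 15 pine genes (7.73%) and 34 aspen genes (50.0%), against 19.9%. Cellulose and maltose themselves separated the sets less. Cellulose exceeded maltose by 2-fold for 17 pine genes (8.76%) and 12 aspen genes (17.6%), against 12.5% over all genes, and was below it for 7 (3.61%) and 8 (11.8%), against 3.83%.

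Read from the other side, 81 genes had at least 4-fold more reads on straw than on cellulose. Their medians were 10.39 on pine and 9.10 on aspen. Of them, 43 (53.1%) were higher on pine and 4 (4.94%) on aspen, against 20.1% and 7.03% of all genes. The 56 genes at least 4-fold lower on straw than on cellulose had medians of 7.89 on pine and 8.42 on aspen. Of these, 19 (33.9%) were higher on aspen and 5 (8.93%) on pine, against 7.03% and 20.1% of all genes. Across all 967 genes the straw minus cellulose and aspen minus pine differences had a Pearson correlation of -0.39 and a Spearman correlation of -0.34. With straw minus maltose in place of straw minus cellulose they were -0.27 and -0.32, and with cellulose minus maltose 0.03 and -0.11. The points of each are genes that share 4 pooled columns and their scaling, so these values describe the table and are not a test.

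**Figure D5:**
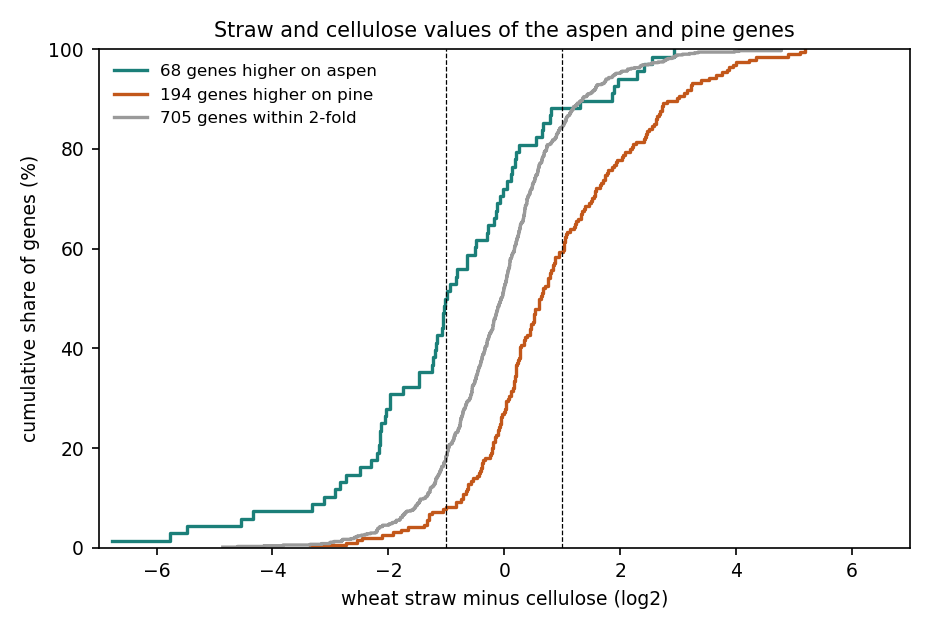
Cumulative share of genes (vertical axis, percent) against the wheat straw minus cellulose difference (log2), for genes higher on aspen, higher on pine and within 2-fold on both woods, with dashed lines at 2-fold. The curve of the genes higher on pine lies to the right, with a median of 0.62, and that of the genes higher on aspen to the left, with a median of -1.01.

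The 194 genes higher on pine fell into groups by what straw did. In the 79 where straw was at least 2-fold above cellulose, the median values were 8.94 on maltose, 9.01 on cellulose, 9.59 on aspen, 11.45 on straw and 11.53 on pine. Pine lay within 2-fold of straw in 61 of these, not far above the 69.3% of all genes. Aspen lay within 2-fold of cellulose in 47, a smaller share than the 76.5% of all genes. In 27 aspen was itself at least 2-fold above cellulose, a share not counted over all genes. Choosing genes by pine over aspen and by straw against cellulose fixes part of the counts in these groups. Another 99 had straw and cellulose within 2-fold. Their medians were 10.28 on maltose, 10.67 on cellulose, 10.70 on straw, 11.56 on pine and 10.06 on aspen. Aspen lay within 2-fold of cellulose in 91 of them, against 76.5% of all genes. That share was not counted among all genes with straw and cellulose within 2-fold. The remaining 16 genes were low on straw (median 8.40) and aspen (8.97) and higher on maltose (10.05), cellulose (10.28) and pine (10.52).

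On the deposited scaling, a high value on pine was a more common form of the difference than a low value on aspen. Pine gave the highest of the 5 values for 148 of the 194 genes, and aspen the lowest for 61. Pine was at least 2-fold above each of maltose, cellulose and straw for 47, which had a median of 11.22 on pine against 9.61 on aspen and 9.46 on straw. Aspen was at least 2-fold below all 3 for 6 genes. The choice of genes by a high pine or low aspen value fixes part of this. Over all 967 genes, pine was the highest value for 326 and aspen the lowest for 151, and the counts at 2-fold from the other 3 were 65 above on pine and 8 below on aspen. The ratio of high pine to low aspen values was thus much the same in the whole table.

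For the 68 genes higher on aspen, a high aspen value and a low pine value were both present. Aspen was the highest of the 5 values for 34 (50.0%) and pine the lowest for 22 (32.4%), against 12.4% and 9.51% of all genes, and the choice of genes by aspen over pine fixes part of this. Their median values were 7.96 on maltose, 8.18 on cellulose, 7.58 on straw, 7.78 on pine and 9.22 on aspen. Aspen was at least 2-fold above maltose, cellulose and straw for 13 of them, against 36 of all 967 genes, with medians of 9.41 on aspen, 7.45 on pine, 5.97 on both maltose and straw, and 5.66 on cellulose. In 10 of these 13 pine was also above straw, although at least 2-fold below aspen. The share of all genes with pine above straw was not counted. Over all genes the column medians were 8.89 on pine and 8.61 on straw. Pine was at least 2-fold below the other 3 substrates for 4 genes, the same number as over all genes, with a median of 9.77 on pine against 10.97 on aspen and 12.06 on cellulose.

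The 34 genes higher on aspen that were at least 2-fold lower on straw than on cellulose had medians of 9.30 on maltose, 9.67 on cellulose, 9.43 on aspen, 7.89 on pine and 6.92 on straw. Aspen lay within 2-fold of cellulose in 22 of them and pine within 2-fold of straw in 22, both below the shares of all genes (76.5% and 69.3%). In the 26 with straw and cellulose within 2-fold, the median was 8.83 on aspen and between 7.36 and 7.91 on the other 4 substrates. The last 8 genes were higher on straw than on cellulose. Their medians were 9.81 on aspen, 8.29 on pine, 8.06 on straw, 6.83 on maltose and 5.69 on cellulose. In all 8 aspen was at least 2-fold above cellulose. Choosing genes by aspen over pine and by straw against cellulose fixes part of the counts in these groups. The share of all genes with aspen 2-fold above cellulose was not counted.

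A small group of genes was high on both woods. For 14 genes both woods were at least 2-fold above maltose, cellulose and straw. Their aspen minus pine differences ran from -1.40 to 0.65 with a median of -0.17, and 3 of them were at least 2-fold higher on pine, near the 20.1% of all genes, and 0 on aspen. No gene was at least 2-fold lower on both woods than on each of the other 3 substrates.

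The genes with the most reads overlapped between the woods. Of the 20 genes with the highest read counts on each wood, 12 (60.0% of each list) were shared, and the same gene led both lists, at 16.15 on pine and 14.88 on aspen. These 20 held 31.3% of the summed normalized read counts of the table on pine and 23.9% on aspen. Of the 20 on pine, 19 were at least 2-fold higher on pine than on aspen, and the other differed by -0.56. Of the 20 on aspen, 12 were also at least 2-fold higher on pine and 2 were higher on aspen, with a median difference of -1.14. Taking each list from one of the columns compared favours that wood. Over all genes 20.1% were at least 2-fold higher on pine and 7.03% on aspen. In the highest bin by mean read count these shares were 39.7% and 5.79%. The counts here are on the deposited scaling. After quantile normalization that bin held 22 genes higher on pine and 35 higher on aspen.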

How the data were processed

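The authors deposited log2 values: a normalized read count per gene, on the log2 scale, with 1 column for each substrate (per the file headers). The submitters' processing notes list TopHat2, HTSeq and DESeq 1.5, with neither role nor order. The genome build, the scaling factors, any offset inside the logarithm and how libraries were combined are not given in the sources used. Libraries came from polyadenylated RNA and were read as pairs, per the labels' protocols.

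The table held 1000 rows. Dropping 23 identical repeats left 977 genes, and the filter (normalized count of about 10 in 2 of 5 substrates) removed 10. The second-highest value of the gene just outside the filter was 3.30 and that of the gene just inside 3.35. How genes were selected for the table is unknown, and differences cover these genes only. Limma had been planned for values per library. With 1 value per substrate it was not run, and 2-fold and 4-fold differences were counted instead. The 12 leading genes per direction were ranked after adding 8 to the linear values, so that genes near the floor do not lead, and are printed as deposited. Numbers are given for the first 2 in each direction, because the files do not pair them with names, and for the same reason planned lists of enzyme families stayed empty. Genes and comparisons were chosen with earlier results of these data known. The counting was checked on data with known differences. Tools were Python 3.11.15, pandas 2.3.3 and NumPy 2.4.6.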

Additional observations from a re-analysis of the deposited data

How the results depend on the processing

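Each count was recomputed without the filter, with a stricter filter (normalized count of about 100 in 2 of 5 substrates), with 8 added to the linear values, with 2 ways of centring and with quantile normalization. The counts by read-count bin and the counts of genes lower on straw than on cellulose were added to these recomputations after the data were seen. All 24 leading genes kept their direction and stayed past 2-fold wherever they were kept (23 under the stricter filter).

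No count moved by over 1.5 times without the filter or under the stricter one. With 8 added, 9 genes instead of 15 were 4-fold higher on aspen, where this lowers differences of genes near the floor by construction. Centring on column medians brought the median difference to -0.087 and the 4-fold genes on pine to 21. Centring on the median difference brought that median to 0 and gave 105 genes 2-fold higher on aspen, 17 genes 4-fold higher on pine, 15 aspen genes with straw above cellulose, 7 pine genes with straw below it, and 22 genes higher on aspen in the highest bin. Quantile normalization brought the median difference to 0 and gave 119 genes higher on aspen and 104 on pine (23 and 19 at 4-fold), and in the highest bin 35 and 22. There 49 of the 104 pine genes (47.1%) had straw above cellulose and 9 had it below. The shares in the unused columns kept their order in every setting. Straw exceeded cellulose for 38.2% to 47.1% of pine genes, 10.1% to 14.3% of aspen genes and 17.9% to 23.2% of all genes. The called genes of each setting contain, or lie within, those of the deposited scaling, which favours the same order.

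No paired analysis was possible because each substrate had 1 pooled value, and for the same reason leaving out a replicate was not run. The spread between cultures limits every difference here and is unknown, as is the depth, so genes with few reads are the least certain.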
